A study of Mus musculus with 40 samples.

Results

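Blood progenitors from mice 14 days old (P14) that carry NUP98-HOXD13 (NHD13), a leukemia gene that joins a nucleoporin to a homeodomain protein, were compared with wild-type progenitors of the same age. The comparison takes every P14 library labelled with either genotype, 4 NHD13 and 4 wild type, which is 8 of the 40 samples of the series. The series sequenced RNA of mouse hematopoietic progenitors at birth and at P14, from animals with combinations of NHD13, Flt3-ITD (a tandem duplication that switches on the receptor FLT3) and a heterozygous Runx1 mutation. The labels give the NHD13 libraries no other allele and no treatment. The cells are described in the labels as hematopoietic progenitors or MPP. The sort gates, the strain, the promoter that drives the fusion, the species of its 2 parts and the number of animals per library are not given in the sources used here. Because nothing says that the 4 libraries of a genotype are separate animals, the p-values measure only the spread between libraries. That spread was estimated from all 24 P14 libraries, which include the Flt3-ITD and Runx1 groups.

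NUP98 lines the nuclear pore. Its fusions in acute myeloid leukemia and myelodysplasia join its phenylalanine-glycine repeats to part of a partner protein. Here that part holds the DNA-binding homeodomain of HOXD13. HOX genes lie in 4 clusters, are active in early blood progenitors and are normally shut off as cells mature, and NUP98 fusions are known for keeping them on. HOX proteins bind DNA together with TALE-class homeodomain partners of the PBX and MEIS families. In young mice the same progenitor pool feeds the megakaryocyte, erythroid, granulocyte, monocyte, mast cell and lymphoid lineages.

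The 4 NHD13 libraries held 20.2, 24, 26.3 and 18.1 M counts and the wild type 20.3, 19.3, 22.6 and 13.7 M, and below the values of a group always follow the order of libraries 1 to 4. Levels are given as CPM, the count scaled to the size of the library. Progenitor markers were high in all 8 libraries: Kit, the stem cell factor receptor, stood at 952, 1046, 1127 and 1000.3 CPM with NHD13 and 1169.5, 1046, 1045 and 739.6 in wild type. Of 18 listed progenitor genes 3 rose and 3 fell. Of 5 tested stromal genes none passed (edgeR). Of 7 tested endothelial genes 4 fell (Tie1, Emcn, Egfl7 and Eng, all also expressed by stem and progenitor cells), and the number was 2 without wild-type library 3. The defining endothelial gene Cdh5 stood at 1.87, 0.0855, 0.721 and 0.729 CPM with NHD13 and 0.302, 0.153, 0.215 and 0.279 in wild type and was not called (1.82 ± 0.74, adjusted p = 0.101 in edgeR). Without NHD13 library 2 Cdh5 rose (2.20 ± 0.69, adjusted p = 0.032 in edgeR). Of 3 tested hepatocyte genes 1 fell, and the number was 1 whichever library was left out. The hepatocyte genes Ttr and Serpina1a had no count and Alb had 5 over the 8 libraries, whereas Afp was at 11.4, 12.6, 9.64 and 11.6 CPM with NHD13 and 10.9, 13.2, 7.58 and 9.34 in wild type. What part these cells have in the results was not tested. Y-linked transcripts were present in 3 of the 4 NHD13 libraries and in 1 of the 4 wild-type libraries, so sex is uneven between the groups. With a term for sex in the fit, 860 genes rose and 1056 fell in place of 1025 and 1260. Wild-type library 1 stood apart in interferon-stimulated genes, wild-type library 3 in eosinophil genes, and NHD13 library 2 in megakaryocyte and erythroid genes, and the affected results are given with and without these libraries.

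The fusion partners were measured as whole-gene counts, in which fusion and normal transcripts are not separated. Hoxd13, the gene at the 5′ end of the Hoxd cluster, stood at 3.602, 3.804, 3.99 and 4.21 CPM with NHD13 and 0, 0, 0.0431 and 0 in wild type. Its identifier is ENSMUSG00000001819, and on GRCm38 it lies on chromosome 2, 74668310 to 74671599, plus strand. That is 342 counts against 1, a ratio of 299.7 (95% counting interval 53.4 to 11872), and every NHD13 library lay above every wild-type library. Nup98 (ENSMUSG00000063550, chromosome 7, 102119398 to 102210176, minus strand) stood at 48.2, 54.1, 51.6 and 48.3 CPM with NHD13 and 33.1, 41.2, 31.3 and 30.6 in wild type. It rose by 0.57 ± 0.11 on the log2 scale (adjusted p = 0.00052, edgeR quasi-likelihood test with Benjamini-Hochberg adjustment, 4 against 4 libraries), without overlap. Flt3, the cytokine receptor altered in other groups of the series, fell by 0.43 ± 0.09, with levels of 863, 1087, 1066 and 1055 CPM with NHD13 and 1509, 1363, 1430.2 and 1185 in wild type. Runx1, a transcription factor of the blood lineages, stood at 58.5, 38.7, 41.3 and 39.4 CPM with NHD13 and 39.4, 52.1, 49.7 and 57.5 in wild type; the groups overlapped and it did not pass (-0.16 ± 0.13, adjusted p = 0.484 in edgeR).

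Genes changed in both directions, and the largest rises were in genes that were close to silent in the wild type. Of 14394 tested genes, 1025 were called higher (7.12%) and 1260 lower (8.75%), so 15.9% passed in edgeR's quasi-likelihood test at a Benjamini-Hochberg adjusted p under 0.05. Below, a gene that "rose" or "fell" passed this test, and its log2 fold change is given ± SE. Each SE was worked back from the test, as the size of the fold change over the square root of its F statistic. It is only approximate, above all for genes near 0 in a group. Such genes, Hox or not, passed the filter on low counts through other libraries. Their calls were largely set in advance, so their fold changes and p-values describe them and test little. They are also part of the list counts below. In 1122 genes (7.79%) every NHD13 library lay above every wild-type library, and in 1348 (9.37%) below. Falls were the more frequent above 1 log2 unit and rises above 2 and 3: 473 rises and 521 falls exceeded 1 log2 unit, 266 rises and 160 falls exceeded 2 log2 units, and 161 and 53 exceeded 3. The median log2 fold change over all tested genes was -0.01. The gene lists used below were chosen with earlier results of these data known. Counts and medians over a list therefore describe its members and test nothing about a lineage or pathway. They are to be read beside the shares over all tested genes given here.

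**Figure D1:**
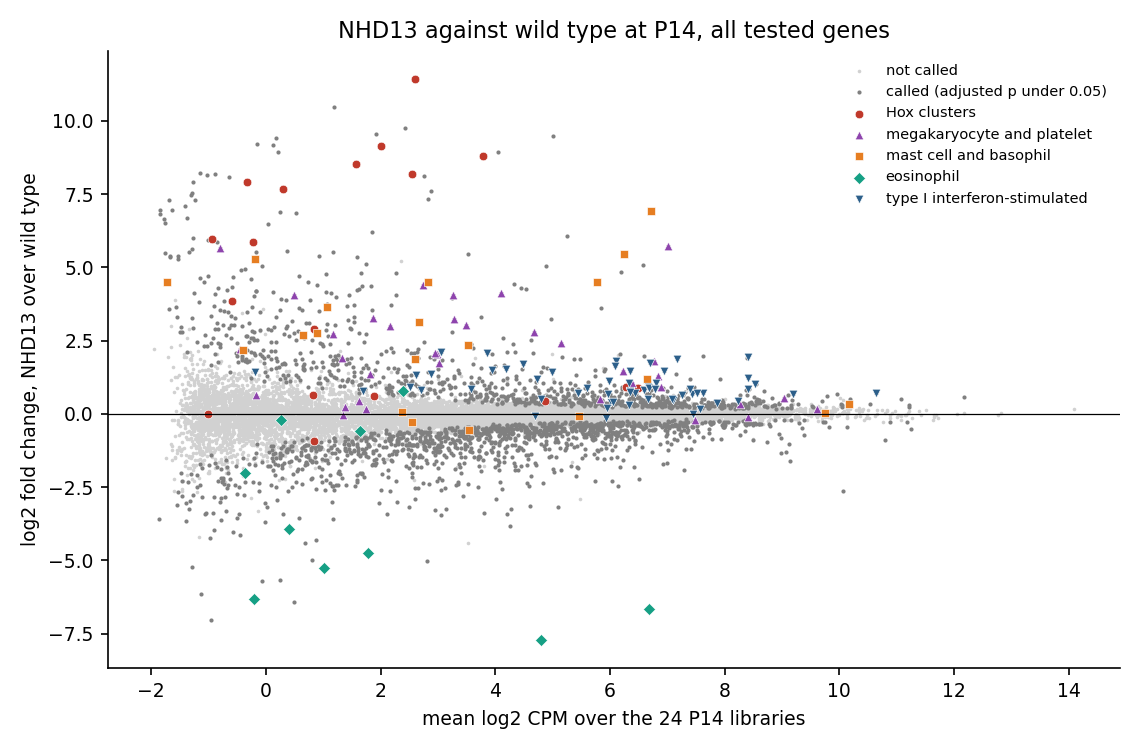
Log2 fold change of NHD13 over wild type at P14 (vertical axis) against mean log2 CPM over the 24 P14 libraries (horizontal axis), 1 point per tested gene (14394), dark grey where adjusted p was under 0.05 in edgeR and coloured by gene list. Hox genes lie at the top at low to medium levels, megakaryocyte and mast cell genes above 0, eosinophil genes at the bottom, and interferon-stimulated genes in a band just above 0 at higher levels.

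Where the mean log2 CPM was 2 or more and the groups did not overlap, the 10 largest rises were Hoxc8, Unc13c, Mab21l2, Hoxc4, Epha3, Hoxc5, Hoxc6, Nav3, Zfpm2 and Tmem47. Mab21l2, a developmental gene of the eye and body wall, stood at 125, 180.1, 95.9 and 141 CPM with NHD13 and 0.252, 0.102, 0.215 and 0.139 in wild type, a rise of 9.49 ± 0.29. Unc13c, which primes synaptic vesicles for release, had 2411 counts over the NHD13 libraries against 2 over the wild type, a ratio of 1056 (95% counting interval 292 to 8729). Zfpm2 (FOG2), a GATA factor partner of the heart and gonad, stood at 24.5, 21.4, 23.01 and 28.1 CPM with NHD13 and 0, 0.102, 0.172 and 0.209 in wild type, a rise of 7.62 ± 0.46. Nav3, a microtubule-binding protein of neurons, rose by 8.11 ± 0.53, and Tmem47, a cell junction protein, by 7.32 ± 0.32. For each of these genes the NHD13 libraries lay within 1 log2 unit of each other while the wild type was at or near 0. None could pass the filter on low counts through the wild type, so these rises are descriptive. Igf1, the secreted growth factor, was among the 5 rises with the lowest p. Its level was 211, 167, 176 and 215 CPM with NHD13 and 6.55, 5.16, 4.74 and 6.28 in wild type, a rise of 5.09 ± 0.18 (adjusted p = 2.57e-17 in edgeR).

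The 10 largest falls by the same rule were the eosinophil genes Epx and Prg2, then Ccr9, Trbc2, Zfp618, Emp1, Tlr12, Plxna4os1, Trib3 and Il17re. Tlr12, a Toll-like receptor for a protozoan profilin, stood at 2.42, 2.48, 3.19 and 1.85 CPM with NHD13 and 30.2, 25.7, 22.7 and 25.2 in wild type, a fall of 3.37 ± 0.19. Emp1, a small membrane protein, fell by 3.41 ± 0.20. Il17re, the receptor subunit for interleukin 17C, fell by 3.25 ± 0.21. Trib3, a stress-induced pseudokinase, fell by 3.26 ± 0.28, and Zfp618, a zinc finger protein, by 3.42 ± 0.47. Plxna4os1 is an antisense RNA (3.26 ± 0.22 lower), and because the strand setting of the counting is not given its reads cannot be told apart from those of Plxna4. The falls with the lowest p were in well-expressed genes. Cd53, a tetraspanin of leukocytes, stood at 261, 248, 235 and 276 CPM with NHD13 and 828, 809, 719 and 747 in wild type and fell by 1.60 ± 0.08 (adjusted p = 5.51e-15 in edgeR). Dpp4 (CD26), a surface peptidase that trims the homing chemokine CXCL12, stood at 15.1, 12.99, 13.5 and 15.5 CPM with NHD13 and 95.3, 59.7, 65.1 and 61.6 in wild type and fell by 2.30 ± 0.12. Kcnk5, a potassium channel, fell by 1.81 ± 0.10. No library of either genotype overlapped the other in these 3 genes.

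HOX genes of all 4 clusters were higher, and those of the Hoxc cluster went from nearly no counts to a clear level. Of the 39 genes of the 4 clusters, 18 passed the filter on low counts. Of these 18, 14 rose and none fell, and 4 (Hoxa3, Hoxa5, Hoxa6 and Hoxb4) were not called. Of the 21 genes that did not pass the filter, 12 had no count in any of the 8 libraries, and the other 9 stayed at or below 1.13 CPM in each library. The median log2 fold change of the tested genes was 0.63 in the Hoxa cluster, 3.85 in Hoxb, 8.79 in Hoxc and 6.77 in Hoxd, beside -0.01 over all tested genes. With Hoxb8 and Hoxc8, which had no wild-type count, set to their lower bounds, the Hoxb and Hoxc medians were 3.85 and 8.77. Of the 14 rises, 7 were in genes with 3 or fewer counts over the wild-type libraries. Genes that silent passed the filter only through libraries with NHD13 and had to differ, so these counts and medians describe the clusters and test nothing. The Hoxa genes, which were already expressed in the wild type, changed least.

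In the Hoxa cluster (chromosome 6), the genes that wild-type progenitors use were raised less than 2-fold. Hoxa9, the HOX factor most tied to stem cell renewal and leukemia, stood at 139, 148, 109 and 131 CPM with NHD13 and 68.03, 65.96, 73.6 and 73.2 in wild type. Hoxa7, its neighbour, stood at 118, 136, 126 and 121 CPM with NHD13 and 62.6, 64.99, 72.2 and 70.4 in wild type. The 4 NHD13 values of each gene were above all wild-type values, with rises of 0.91 ± 0.11 and 0.89 ± 0.08. Hoxa10, at 49.6, 40.6, 30.3 and 41.6 CPM with NHD13 and 28.8, 32.3, 30.1 and 27.2 in wild type, rose by 0.45 ± 0.14 (adjusted p = 0.0217 in edgeR), with NHD13 library 3 inside the wild-type range, and missed the threshold without NHD13 library 1 or 4 or wild-type library 4 (adjusted p = 0.0524 to 0.107 in edgeR). Per kilobase of exon, Hoxa7 averaged 43.5 RPKM with NHD13 and 23.5 in wild type, the highest level of any Hox gene in both groups. Hoxa5 was higher in each NHD13 library than in each wild-type library and missed the threshold (0.61 ± 0.23, adjusted p = 0.076 in edgeR).

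The Hoxb cluster (chromosome 11) split along its length. Hoxb5, Hoxb6, Hoxb7 and Hoxb8 rose, while Hoxb4, a stem cell HOX factor at the 3′ side of these, stood at 1.23, 0.769, 1.25 and 1.402 CPM with NHD13 and 1.36, 2.301, 2.24 and 2.999 in wild type and was not called (-0.93 ± 0.36, adjusted p = 0.0815 in edgeR). Without wild-type library 1 Hoxb4 fell (adjusted p = 0.0389 in edgeR). Hoxb7 stood at 6.96, 5.56, 7.099 and 8.47 CPM with NHD13 and 0, 0.0511, 0 and 0 in wild type. Hoxb8 had 127 counts over the NHD13 libraries and none over the wild type, which is at least 37.1-fold higher against a floor of 3 counts over the group. Hoxb5, which marks long-term stem cells, stood at 4.19, 3.68, 5.35 and 4.49 CPM with NHD13 and 0.655, 0.307, 0.474 and 0.976 in wild type and rose by 2.90 ± 0.45. In all 4 genes the groups were apart, and NHD13 library 2 was the lowest NHD13 library.

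The Hoxc cluster (chromosome 15) was silent or nearly so in the wild type, and Hoxc4, Hoxc5, Hoxc6, Hoxc8 and Hoxc9 all rose. Hoxc8 (ENSMUSG00000001657, chromosome 15, 102990607 to 102994111, plus strand) stood at 20.5, 14.7, 16.5 and 16.9 CPM in the NHD13 libraries and had no count in any wild-type library, which is at least 437-fold higher. Hoxc5 stood at 45.5, 43.6, 40.4 and 42.7 CPM with NHD13 and 0, 0.358, 0 and 0 in wild type, Hoxc6 at 17.3, 19.1, 15.6 and 17.4 CPM with NHD13 and 0, 0, 0 and 0.279 in wild type, and Hoxc4 at 12.4, 12.3, 10.3 and 8.81 CPM with NHD13 and 0, 0, 0 and 0.0697 in wild type. Each NHD13 library had all 4 of these transcripts at 8.81 CPM or more. The Hoxc5 gene model spans 102967443 to 103017429 and overlaps Hoxc6, Hoxc8 and Hoxc9, and how reads in shared exons were assigned is not given, so the split between these genes is uncertain. Per kilobase of exon, Hoxc5 averaged 13.9 RPKM with NHD13 and 0.02897 in wild type, and Hoxc8 averaged 6.06 RPKM with NHD13 and 0 in wild type. Both NHD13 values lie below that of Hoxa7.

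In the Hoxd cluster (chromosome 2) the fusion partner Hoxd13 and Hoxd8 were the genes that passed the filter, and both rose. Hoxd8 had 230 counts against 3, a ratio of 67.2 (95% counting interval 22.7 to 328). Hoxd9, Hoxd4 and Hoxd10 lie between these genes or beside them, and had 5, 31 and 0 counts over the NHD13 libraries and none in the wild type. Hoxd10, Hoxd11 and Hoxd12, the neighbours of Hoxd13, had no count in any of the 8 libraries.

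**Figure D2:**
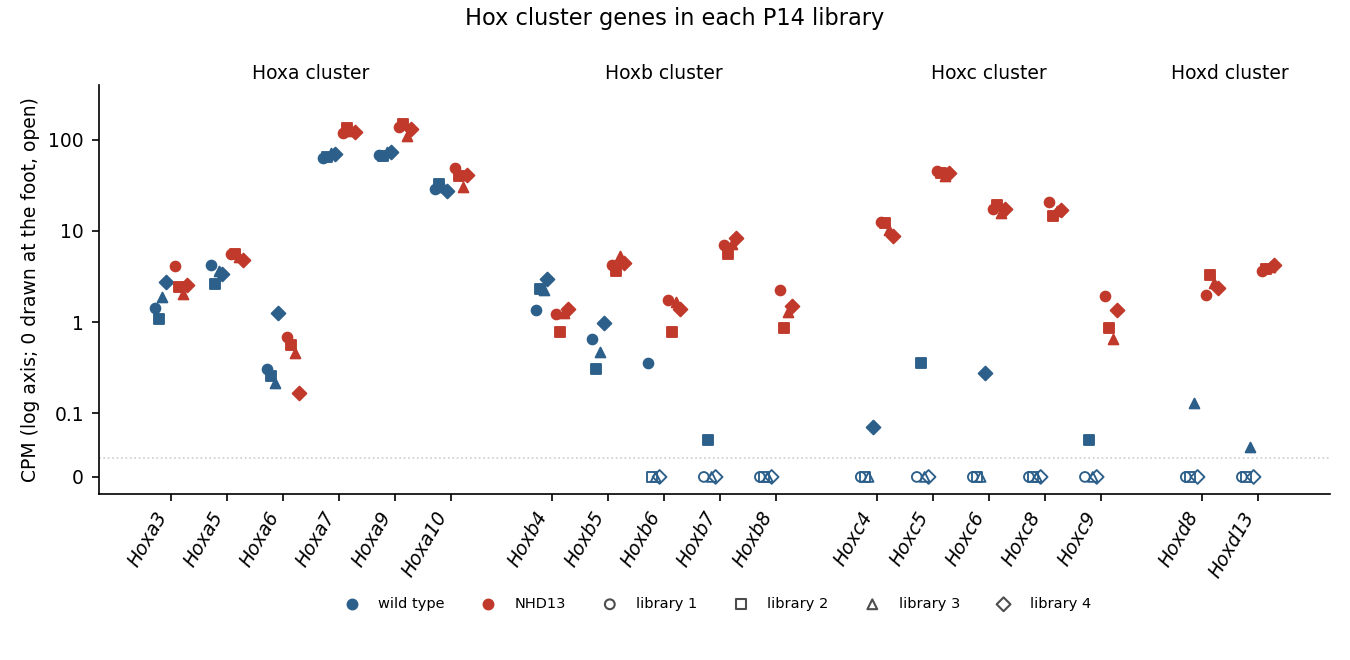
CPM on a log axis of the 18 tested Hox genes in each P14 library, by cluster and in order of paralog number, wild type in blue and NHD13 in red, 1 symbol per library and open symbols at the foot for 0 counts. Hoxa genes differ by a step, while Hoxb7, Hoxb8, the Hoxc genes, Hoxd8 and Hoxd13 move from 0 or near 0 to between 0.645 and 45.5 CPM.

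Among 16 noncoding RNAs of the clusters 4 passed the filter and 2 rose: Hoxb5os (2.57, 2.65, 3.72 and 3.197 CPM with NHD13 and 0.755, 0.614, 0.431 and 0.418 in wild type) and Hoxd3os1 (99 counts against none). Both are antisense to Hox genes, and with the strand setting not given their reads cannot be told apart from those of Hox genes they overlap. Of 18 protein-coding neighbours outside the clusters 14 were tested, 4 rose (28.6%, beside 7.12% of all tested genes) and none fell. The 4 were Lnpk beside Hoxd13 (0.88 ± 0.11), Skap2 beside the Hoxa cluster (0.63 ± 0.08), Skap1 beside Hoxb (1.01 ± 0.27) and Smug1 beside Hoxc (0.49 ± 0.14). The other 10 were not called, and the median of the 14 was 0.02. These 4 rises were smaller than the median of the Hoxb, Hoxc or Hoxd genes. Those of Lnpk and Skap1 exceeded the Hoxa median of 0.63, and that of Smug1 was below it.

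The 250 bases before the start of Hoxb8 are shown because this promoter went from no count to a measured level in every NHD13 library. They come from RefSeq promoters on GRCm38 (chr11:96281655-96281904, plus strand), and capitals mark TTTAT or its reverse complement, the core letters that posterior HOX proteins prefer.
Hoxb8: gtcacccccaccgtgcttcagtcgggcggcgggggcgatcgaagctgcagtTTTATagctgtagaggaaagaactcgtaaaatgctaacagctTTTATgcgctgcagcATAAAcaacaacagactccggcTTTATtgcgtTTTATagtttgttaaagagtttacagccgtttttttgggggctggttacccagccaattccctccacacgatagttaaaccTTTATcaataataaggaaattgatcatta
The letters occur 6 times in this window. The pattern is short: searched on both strands, it was in 24.1% of the 7925 windows of tested genes, in 30.2% of the 590 windows of genes that rose and in 25.4% of the 702 windows of genes that fell. Of the 14 Hox genes that rose, 4 had a window in the table, and 3 of these held it.

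HOX cofactors moved in opposite directions. Pbx3, the PBX partner of HOXA9 in leukemia, rose most clearly of all TALE genes. It stood at 92.8, 89.5, 88.2 and 88.2 CPM with NHD13 and 1.56, 3.53, 2.93 and 2.93 in wild type, a rise of 5.03 ± 0.20 (adjusted p = 3.42e-17 in edgeR), and the 4 NHD13 libraries differed by less than 5 CPM. Meis1, the other leukemia-linked partner, stood at 398, 323, 421 and 415 CPM with NHD13 and 707, 589, 660 and 570.5 in wild type and fell by 0.70 ± 0.09, with no overlap. Pknox1 (PREP1), a MEIS relative that competes for PBX, fell by 0.46 ± 0.10. The TALE genes Pbx2, Pbx4, Meis3, Tgif1 and Tgif2 were not called. Per kilobase of exon Meis1 averaged 36.95 RPKM with NHD13 and 59.97 in wild type, and Pbx3 averaged 14.7 RPKM with NHD13 and 0.448 in wild type.

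Genes of the chromatin machinery that HOX expression depends on were called about as often as all genes. Of 34 genes of the KMT2A and menin complex, polycomb and known NUP98-fusion cofactors, 4 rose and 2 fell (17.6%, beside 15.9% of all tested genes), and their median was -0.02. Without wild-type library 1, 4 fell. Jarid2, a polycomb cofactor, rose by 0.70 ± 0.10 and Mllt3 (AF9), a reader that recruits elongation factors, by 0.46 ± 0.11. Kdm6b and Kdm5a, both histone demethylases, rose by 0.44 ± 0.12 and 0.39 ± 0.08. Kdm6b was not called without NHD13 library 1 (adjusted p = 0.0525 in edgeR). The 2 falls were Ring1 (0.93 ± 0.28 lower) and Phc1 (0.43 ± 0.11 lower), members of polycomb complex 1. Ring1 missed the threshold without NHD13 library 1 or 2 or wild-type library 4 (adjusted p = 0.0528 to 0.153 in edgeR). Kmt2a, Men1, Dot1l, Ezh2 and Xpo1 were not called, with log2 fold changes between -0.07 and 0.22.

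Most tested genes of the fetal progenitor list were higher in NHD13 cells. Of 20 listed genes 9 passed the filter, 7 rose and none fell, with a median of 0.83. Lin28b, the RNA-binding protein that blocks let-7 microRNAs and marks fetal blood cells, stood at 60.3, 63.3, 61.1 and 63.05 CPM with NHD13 and 3.27, 3.12, 2.76 and 3.35 in wild type, a rise of 4.31 ± 0.17 (adjusted p = 2.57e-17 in edgeR). The 4 NHD13 libraries lay between 60.3 and 63.3 CPM, far above the wild type. Eya1, a developmental phosphatase, stood at 103, 121, 109 and 112 CPM with NHD13 and 39.3, 38.9, 45.9 and 37.2 in wild type and rose by 1.47 ± 0.10. Arid3a, a fetal B-lineage factor, rose by 1.23 ± 0.17, and Hmga2, a chromatin protein that let-7 represses, by 0.89 ± 0.14. The RNA-binding proteins Igf2bp2 and Igf2bp3 rose by 0.83 ± 0.19 and 0.73 ± 0.19, with wild-type library 2 close to the NHD13 range for Igf2bp2. The let-7 microRNA genes in the list had 0 to 3 counts over a group and were not tested.

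Imprinted genes of growth control split. Of 28 listed genes 15 were tested, 3 rose and 3 fell. Igf2, a fetal growth factor, stood at 3.799, 3.59, 1.78 and 2.86 CPM with NHD13 and 0.0504, 0.307, 0.0431 and 0.279 in wild type, and H19, the noncoding RNA imprinted with it, at 6.96, 6.197, 3.64 and 3.42 CPM with NHD13 and 0.352, 0.562, 0.172 and 0.279 in wild type. They rose by 4.18 ± 0.67 and 3.87 ± 0.49, from under 1 CPM in each wild-type library. Igf2r, the receptor that clears Igf2, also rose (1.001 ± 0.16). Ndn, an imprinted growth suppressor of stem cells, fell by 2.39 ± 0.26, from 19.6, 25.7, 23.4 and 22.4 CPM in the wild type to 6.56, 2.65, 4.897 and 3.197. Grb10 and Sgce fell by 0.67 ± 0.20 and 0.55 ± 0.12, and Grb10 missed the threshold without NHD13 library 3 or 4 or wild-type library 3 (adjusted p = 0.0641 to 0.0871 in edgeR).

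Stem cell genes moved both ways, 12 up and 13 down among 36 tested of 37 listed, with a median of -0.17. The number that fell was 10 without NHD13 library 2 and 11 with a term for sex. Among the rises, Slamf1 (CD150), used to sort stem cells, stood at 40.1, 26.6, 54.1 and 47.7 CPM with NHD13 and 7.603, 6.03, 6.68 and 7.39 in wild type, and Mecom (EVI1), a stem cell transcription factor, at 128, 111, 124 and 130.3 CPM with NHD13 and 66.2, 66.3, 76.1 and 65.1 in wild type. They rose by 2.61 ± 0.18 and 0.85 ± 0.12, with no overlap. Neo1, a netrin receptor, and Nupr1, a stress-induced nuclear protein, rose by 4.81 ± 0.43 and 3.71 ± 0.28, both from at most 1.46 CPM in a wild-type library. Vwf, also a platelet gene, rose by 3.24 ± 0.33. Several surface genes of stem and multipotent cells fell. Cd34 stood at 1035, 1331, 1132 and 1212 CPM with NHD13 and 2416, 2274, 2142 and 1934 in wild type, a fall of 0.90 ± 0.08. Esam, a junction protein of stem cells, stood at 4.54, 4.15, 6.68 and 4.38 CPM with NHD13 and 45.9, 24.6, 49.9 and 59.3 in wild type and fell by 3.17 ± 0.28. Robo4, another stem cell surface protein, fell by 2.10 ± 0.17. Ifitm1 fell from 263, 288, 280.3 and 340.3 CPM to 55.2, 42.01, 46.5 and 43.5, by 2.64 ± 0.11. Procr (EPCR) and Ly6a (SCA-1) were not called.

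Most tested genes of the megakaryocyte list rose. Of 38 listed genes 35 were tested, 25 rose and none fell, with a median of 1.81. In a bulk library more cells of a type and more RNA per cell cannot be told apart, here and for every lineage below. Pf4, the platelet chemokine CXCL4, stood at 656, 158, 595 and 742 CPM with NHD13 and 12.4, 6.75, 11.1 and 9.76 in wild type. NHD13 library 2 was the lowest of its group by a factor of over 3, yet it lay above every wild-type library, and the rise was 5.74 ± 0.47 (adjusted p = 3.4e-08 in edgeR). Cavin2, of the platelet membrane system, stood at 34.7, 10.3, 27.8 and 29.8 CPM with NHD13 and 2.11, 0.4602, 1.64 and 0.418 in wild type and rose by 4.41 ± 0.45. Timp3, a protease inhibitor, rose by 4.13 ± 0.42. Clec1b, the platelet receptor CLEC-2, had 143 counts against 2, a ratio of 62.7 (95% counting interval 17.03 to 522). Itga2b (CD41), the first integrin of the lineage, stood at 100.4, 41.97, 120.1 and 103 CPM with NHD13 and 16.8, 13.3, 17.2 and 20.6 in wild type, and Gp5, a late platelet glycoprotein, at 2.02, 0.556, 1.75 and 1.12 CPM with NHD13 and 0.302, 0.102, 0.345 and 0.418 in wild type. Both rose, by 2.43 ± 0.25 and 2.22 ± 0.52, with no overlap between the groups.

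NHD13 library 2 was the lowest NHD13 library in 24 of these 25 genes. Without it 28 members rose. The late genes Gp9 and Selp and the factors Nfe2 and Fli1 were not called, with log2 fold changes between -0.22 and 0.51. Without NHD13 library 2 Gp9 rose (0.66 ± 0.20, adjusted p = 0.0237 in edgeR). Without wild-type library 2 Nfe2 fell (-0.31 ± 0.098, adjusted p = 0.0288 in edgeR).

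Among erythroid genes rises outnumbered falls. Of 44 listed genes 36 were tested, 15 rose, 3 fell and 18 were not called, with a median of 0.53. Gata1, the master factor of erythroid, megakaryocyte and mast cells, stood at 53.5, 63.9, 74.7 and 66.8 CPM with NHD13 and 13.9, 8.897, 12.6 and 9.13 in wild type and rose by 2.53 ± 0.19. Klf1, the erythroid factor, stood at 3.55, 6.496, 3.45 and 3.98 CPM with NHD13 and 0.352, 0.767, 0.775 and 1.19 in wild type and rose by 2.52 ± 0.40. Car1, a carbonic anhydrase of red cells, stood at 114, 246, 123 and 215 CPM with NHD13 and 1.81, 1.02, 2.89 and 4.95 in wild type, a rise of 6.08 ± 0.70. Tspo2 and Mfsd2b, membrane proteins of erythroblasts, rose by 4.79 ± 0.51 and 4.26 ± 0.27. Epor, the erythropoietin receptor, rose by 1.24 ± 0.29. Car2, at 2714, 3386, 2669 and 3207 CPM with NHD13 and 4004, 4489.8, 4662 and 4045 in wild type, fell by 0.52 ± 0.10, as did Gypc (0.42 ± 0.09) and Hemgn (0.36 ± 0.11). Hemgn missed the threshold without NHD13 library 1 or 2 or wild-type library 1, 2 or 3 (adjusted p = 0.0661 to 0.138 in edgeR). The globins Hba-a1 and Hbb-bs and the heme enzyme Alas2 were not called; they were highest in wild-type library 1. Hba-a1 and Hba-a2, and the Hbb copies, are near-identical, so the share of reads each received is uncertain. NHD13 library 2 held the highest NHD13 value in 9 of the 15 genes that rose, for example Tspo2 at 3.75, 12.6, 6.57 and 7.52 CPM in the 4. The list count was 15 to 16 when any single library was left out.

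The window before Gp5 is shown as an example of a platelet promoter from a list in which most tested genes rose (RefSeq, GRCm38, chr16:30310782-30311031, minus strand). Capitals mark AGATAA or its reverse complement, the letters that GATA factors bind, at 93 and 77 bases before the start.
Gp5: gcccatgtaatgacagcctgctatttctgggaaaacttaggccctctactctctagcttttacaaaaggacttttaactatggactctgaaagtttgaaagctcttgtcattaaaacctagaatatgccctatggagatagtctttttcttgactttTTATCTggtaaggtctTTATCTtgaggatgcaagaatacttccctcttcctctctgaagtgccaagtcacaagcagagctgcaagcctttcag
Searched on both strands, AGATAA was in 5.89% of the 7925 windows of tested genes. It was in 6 of 28 windows (21.4%) of megakaryocyte and erythroid genes that rose and in 2 of 11 (18.2%) of those not called.

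Most tested genes of the mast cell and basophil list rose, some to a high level. Of 22 listed mast cell and basophil genes 20 were tested, 13 rose and none fell, with a median of 2.53. Cma1, the chymase of mast cell granules, stood at 544, 923, 252 and 474 CPM with NHD13 and 0.504, 9.51, 4.22 and 3.97 in wild type. Tpsb2, a granule tryptase, stood at 354, 602, 221 and 268 CPM with NHD13 and 0.302, 16.4, 8.699 and 7.25 in wild type. Every NHD13 library lay far above every wild-type library in both, with rises of 6.91 ± 0.83 and 5.46 ± 1.05. Wild-type library 1 was the lowest of all 8 in these genes. Cpa3, the granule carboxypeptidase, stood at 281, 368, 115 and 193 CPM with NHD13 and 11.3, 10.7, 8.96 and 11.7 in wild type and rose by 4.49 ± 0.41, and Mrgprb2, a mast cell receptor for peptides, rose by 5.29 ± 0.74. Il1rl1 (ST2), the interleukin 33 receptor of mast cells, rose by 3.64 ± 0.495, and Gata2, a factor that stem cells and mast cells share, by 1.19 ± 0.12. The high-affinity IgE receptor chain Fcer1a had 62 counts against 1 and did not pass the filter. Mcpt8, the basophil protease, and Kit were not called (0.06 ± 0.39 and 0.04 ± 0.12). NHD13 library 3 was the lowest NHD13 library in 10 of the 13 genes. Tpsb2 and Tpsab1 are close paralogs, and reads may be split between them.

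Eosinophil granule genes went the other way. Of 11 listed genes 10 were tested, 7 fell and none rose, with a median of -4.33. Prg2, the major basic protein, stood at 4.29, 2.65, 2.43 and 2.47 CPM with NHD13 and 194, 145, 674 and 188 in wild type, a fall of 6.67 ± 1.36 (adjusted p = 0.00164 in edgeR). Epx, the eosinophil peroxidase, stood at 0.592, 0.385, 0.3797 and 0.2805 CPM with NHD13 and 62.1, 65.5, 174 and 44.8 in wild type and fell by 7.70 ± 1.72. Wild-type library 3 was more than 3 times as high as the next wild-type library for Prg2, yet the lowest wild-type library was still far above every NHD13 library. Without wild-type library 3, 7 members fell. Ear1, an eosinophil ribonuclease, had 2 counts against 197, 112-fold lower (95% counting interval 30.7 to 935). Its relatives Ear2 and Ear6 fell by 3.91 ± 0.80 and 5.25 ± 0.94. All 3 are close copies of each other, so the values of single members are uncertain. Siglecf and Il5ra, surface proteins of mature eosinophils, were not called (-0.59 ± 0.28 and -0.20 ± 0.45).

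**Figure D3:**
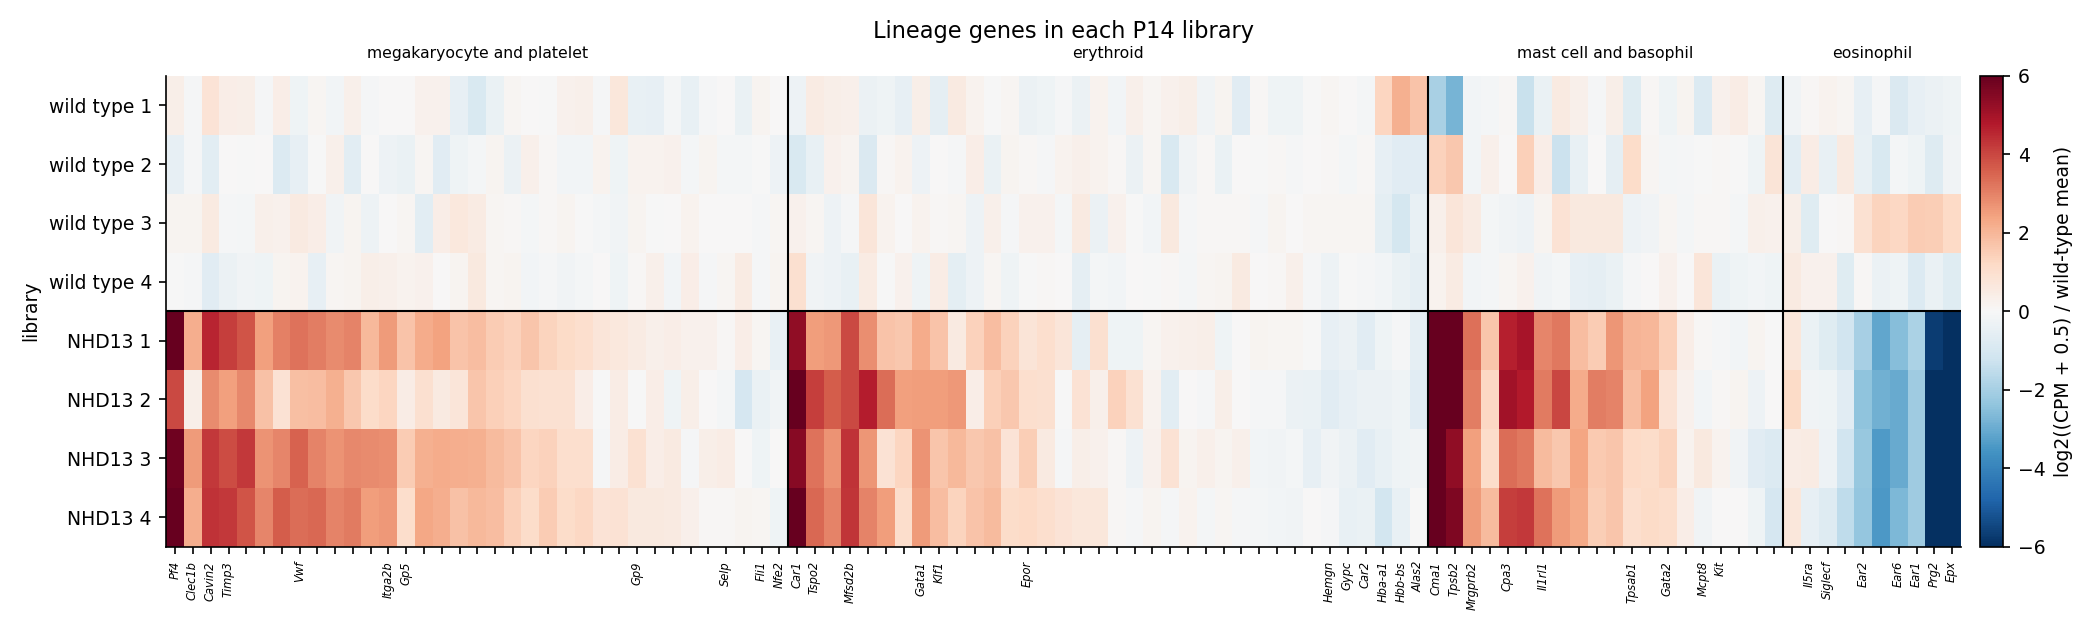
Log2 ratio of CPM + 0.5 to the wild-type mean (colour, limited to 6 in either direction) for the tested megakaryocyte, erythroid, mast cell and eosinophil genes (columns, sorted by fold change within a list and labelled where the text names the gene) in each of the 8 libraries (rows). NHD13 libraries are red over most megakaryocyte and mast cell genes, paler in library 2 for megakaryocyte genes, and blue over the eosinophil granule genes, which are high in wild-type library 3.

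Granulocyte, monocyte and lymphoid genes that changed mostly fell. In the granulocyte list 10 of 29 tested genes fell and 2 rose (median -1.12). Cebpa, the factor of granulocyte-monocyte commitment, stood at 1.28, 0.897, 1.44 and 0.393 CPM with NHD13 and 2.06, 3.78, 3.23 and 8.72 in wild type and fell by 2.10 ± 0.34. Csf3r, the G-CSF receptor, stood at 27.5, 43.3, 39.4 and 34.6 CPM with NHD13 and 134, 107, 101 and 87.2 in wild type and fell by 1.57 ± 0.18. Prtn3, a primary granule protease, fell by 1.21 ± 0.15. Lcn2, a secondary granule protein, fell by 3.16 ± 0.999, with 0.655, 9.77, 1.77 and 0.0697 CPM in the wild type, and was no longer called without NHD13 library 1, 2 or 4 or wild-type library 2 (adjusted p = 0.0746 to 0.359 in edgeR). Mpo and Elane, the abundant primary granule genes, were not called (0.47 ± 0.38 and -0.10 ± 1.05). The 2 rises were Prss57 (0.30 ± 0.10) and Fcgr3 (0.92 ± 0.28). Prss57 missed the threshold without NHD13 library 2, 3 or 4 or wild-type library 2 or 3 (adjusted p = 0.0564 to 0.101 in edgeR), and Fcgr3 without NHD13 library 2 or wild-type library 2 (adjusted p = 0.0801 to 0.143 in edgeR).

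Of 28 tested monocyte, macrophage and dendritic genes 5 fell and 1 rose (21.4% called, beside 15.9% of all tested genes). The list as a whole leaned up, with a median of 0.45 and 20 log2 fold changes above 0 against 8 below. The number that fell was 3 without NHD13 library 1, 2 or 3 or wild-type library 2 or 4, and with a term for sex. With the 8 libraries alone 4 rose and 5 fell. Csf1r, the M-CSF receptor, stood at 4.49, 5.86, 8.28 and 7.07 CPM with NHD13 and 25.2, 32.3, 25.9 and 28.2 in wild type and fell by 2.11 ± 0.18. Lyz2, lysozyme, stood at 86.6, 85.9, 101 and 109.8 CPM with NHD13 and 252, 188, 227 and 222 in wild type and fell by 1.21 ± 0.11. Id2, which favours dendritic and innate lymphoid fates, rose by 0.62 ± 0.16, with NHD13 library 3 inside the wild-type range, and missed the threshold without NHD13 library 4 (adjusted p = 0.0513 in edgeR). The macrophage genes Adgre1, C1qa, C1qb, C1qc and Vcam1 were not called.

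Of 34 tested lymphoid priming and B-lineage genes 9 fell and 1 rose (median -0.21). Ccr9, the thymus-homing chemokine receptor of lymphoid-primed progenitors, stood at 4.93, 6.11, 3.64 and 3.65 CPM with NHD13 and 66.2, 82.6, 58.6 and 55.3 in wild type, a fall of 3.84 ± 0.35. Dntt, the template-free polymerase of lymphoid progenitors, stood at 242, 389, 287 and 345 CPM with NHD13 and 928, 561, 771 and 823 in wild type and fell by 1.29 ± 0.20. Gata3, a T-lineage factor, stood at 2.81, 0.598, 3.303 and 3.25 CPM with NHD13 and 23.7, 16.8, 22.1 and 25.7 in wild type and fell by 3.15 ± 0.27. No library of a group overlapped the other in these 3 genes. Mef2c, a factor of lymphoid priming, rose by 0.44 ± 0.07. Rag1, Rag2, Il7r and Ebf1 were not called.

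Among 17 tested T and NK cell genes 8 fell and 2 rose (median -0.72). The T cell receptor constant regions moved oppositely. Trbc2 stood at 2.12, 2.31, 2.81 and 2.69 CPM with NHD13 and 24.4, 30.3, 27.05 and 26.4 in wild type and fell by 3.44 ± 0.30, while Trac stood at 4.24, 2.18, 3.303 and 3.31 CPM with NHD13 and 0.0504, 0.205, 0.0431 and 0.0697 in wild type and rose by 5.06 ± 0.52. The groups did not overlap in either gene. Gimap4, a GTPase of lymphocytes, fell by 2.21 ± 0.22, and Klrd1, an NK cell receptor chain, by 4.13 ± 0.82. Cd3e and Cd3d had 0 to 6 counts over a group, so the defining T cell genes were near 0 in both genotypes.

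Among cytokine receptors falls outnumbered rises. Of 41 tested receptors 15 fell and 3 rose, with a median of -0.34. In 9 of the 41 every NHD13 library lay below every wild-type library, so some of the falls had overlapping groups. The number that fell was 11 without NHD13 library 4, 12 with the 8 libraries alone and 18 without wild-type library 1. Il1r1, the interleukin 1 receptor, stood at 14.2, 11.1, 11.1 and 13.5 CPM with NHD13 and 37.5, 65.6, 74.4 and 77.96 in wild type and fell by 2.36 ± 0.20. Il6ra, the interleukin 6 receptor chain, fell by 1.65 ± 0.26, beside Csf1r and Csf3r above. The 3 rises were Il1rl1, Epor and Tgfbr1 (0.52 ± 0.10). Kit and Il7r were not called.

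Feedback genes of STAT5 and of cytokine signals fell or were not called. STAT5 is a factor that many of these receptors and Flt3 activate. The list is not specific to STAT5, and Id1 is also counted with the BMP genes below. Of 19 tested 9 fell, beside 8.75% over all tested genes, and none rose (median -0.32). Socs3 fell by 2.45 ± 0.45, Id1 by 1.81 ± 0.28, Socs2 by 1.23 ± 0.25 and Gfi1 by 1.22 ± 0.25. Cish, a direct STAT5 target, stood at 15.6, 18.9, 17.6 and 18.01 CPM with NHD13 and 37.97, 22.5, 29.4 and 28.7 in wild type and fell by 0.76 ± 0.15, with no overlap. In the wild type both Socs3 (0.655, 1.94, 1.68 and 5.72 CPM) and Id1 (2.62, 7.21, 5.04 and 8.79 CPM) were lowest in library 1. Pim1 and Pim2, survival kinases downstream of STAT5, fell by 0.78 ± 0.15 and 0.99 ± 0.19. Bcl2l1 and Myc were not called. Feedback genes of the MAP kinase pathway were called in 13.3%, beside 15.9% over all genes: of 15 tested, Spry4 rose by 1.71 ± 0.46, Ier3 fell (0.97 ± 0.14), and the other 13 were not called. Without wild-type library 1, 2 rose and 3 fell. The rise of Spry4 was not called without NHD13 library 2 (adjusted p = 0.056 in edgeR).

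Among genes of TGF-beta and BMP signalling 5 of 13 tested rose and 2 fell (53.8% called, beside 15.9% of all tested genes). Inhba, which encodes the activin A subunit, stood at 51.02, 37.01, 57.1 and 49.9 CPM with NHD13 and 1.01, 0.614, 1.59 and 1.19 in wild type, a rise of 5.45 ± 0.44. Ltbp1, which stores latent TGF-beta, rose by 4.04 ± 0.56, and the inhibitors Bambi and Smad7 by 1.70 ± 0.37 and 0.95 ± 0.20. Tgfbi, a matrix protein that TGF-beta induces, stood at 37.5, 35.9, 42.4 and 38.1 CPM with NHD13 and 86.1, 106, 133 and 120 in wild type and fell by 1.53 ± 0.16. The other 2 called members were Id2, described above with the monocyte genes, and Id1, both targets of BMP signals.

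Guidance receptors of the nervous system included some of the steepest rises. Of 26 tested genes of the Eph, ephrin, semaphorin, plexin, Robo and Slit families 7 rose and 4 fell (42.3% called, beside 15.9% of all tested genes). Epha3, a receptor tyrosine kinase for A-type ephrins, stood at 73.3, 65.7, 48.8 and 51.7 CPM with NHD13 and 0.252, 0.0511, 0.0861 and 0.0697 in wild type, a rise of 8.93 ± 0.36 (adjusted p = 5.59e-17 in edgeR). With the wild type this near 0, that p-value describes the gene and tests little. Epha4 stood at 11.7, 10.8, 9.98 and 9.93 CPM with NHD13 and 0.151, 0.205, 0.0861 and 0.697 in wild type and rose by 5.34 ± 0.46. The ligand Efna5 rose by 4.38 ± 0.52 and the Robo ligand Slit2 by 3.88 ± 0.55. Among the receptors for B-type ephrins, Ephb2, Ephb4 and Ephb6 fell by 0.82 ± 0.20, 1.63 ± 0.41 and 1.05 ± 0.21, while Ephb1 rose by 2.89 ± 0.80. Ephb1 was not called without NHD13 library 3 (adjusted p = 0.0513 in edgeR). Robo4 fell, as given above, and its relative Robo1 rose by 2.40 ± 0.43.

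Homing genes split, with 5 rises and 7 falls among 32 tested (37.5% called, beside 15.9% of all tested genes). Itga4, the alpha chain of the VLA-4 integrin, stood at 229, 215, 249 and 242 CPM with NHD13 and 123, 125, 126 and 123 in wild type and rose by 0.91 ± 0.07. Cdh17, a cadherin of the gut, rose by 1.95 ± 0.49, and Ccr1, a chemokine receptor of myeloid cells, by 1.92 ± 0.47. Selplg, the ligand of P-selectin, fell by 0.94 ± 0.11, and S1pr3, a receptor for sphingosine 1-phosphate, by 1.78 ± 0.44. Cxcr4, the main marrow-homing receptor, was not called (-0.16 ± 0.25).

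Most listed type I interferon-stimulated genes were higher in NHD13 progenitors. Of 59 listed 58 were tested, 44 rose and none fell, and the median log2 fold change was 0.84, beside -0.01 over all tested genes. The NHD13 mean was above the wild-type mean in 55 of the 58. These genes respond to interferon through a complex that holds STAT2 and IRF9 and binds a short promoter element. Irf7, the factor that amplifies interferon production, stood at 388, 519, 586 and 501 CPM with NHD13 and 201, 89.2, 85.4 and 150.1 in wild type, a rise of 1.93 ± 0.39 (adjusted p = 0.00167 in edgeR). Usp18, which damps the receptor, stood at 179, 290.4, 225 and 224 CPM with NHD13 and 121, 39.1, 31.8 and 60.5 in wild type and rose by 1.86 ± 0.46. Oas1g, a sensor of double-stranded RNA, rose by 2.09 ± 0.29, and Phf11d by 2.10 ± 0.45. Oas1g has close paralogs, so its reads may be shared with Oas1a.

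Wild-type library 1 was the highest wild-type library in 50 of the 58 genes. Summed over the list, the libraries held 8848, 11200.1, 10657 and 10247 CPM in NHD13 and 7313, 5082, 5072 and 5987 in the wild type, so the groups stayed apart on the sum. Gene by gene, 35 of the 44 that rose had no overlap, a share near that of all rises (835 of 1025). In 8 of the 9 that overlapped wild-type library 1 was the highest of its group. Without that library 52 genes rose. Without any other single library 36 to 43 rose. The count was 35 with a term for sex, 40 with no filter and 41 with the 8 libraries alone. Mx1 and Ifit3 were not called (1.36 ± 0.54 and 1.502 ± 0.55), and in the wild type their highest value was in library 1 (14.3, 1.99, 4.61 and 5.37 CPM of Ifit3).

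**Figure D4:**
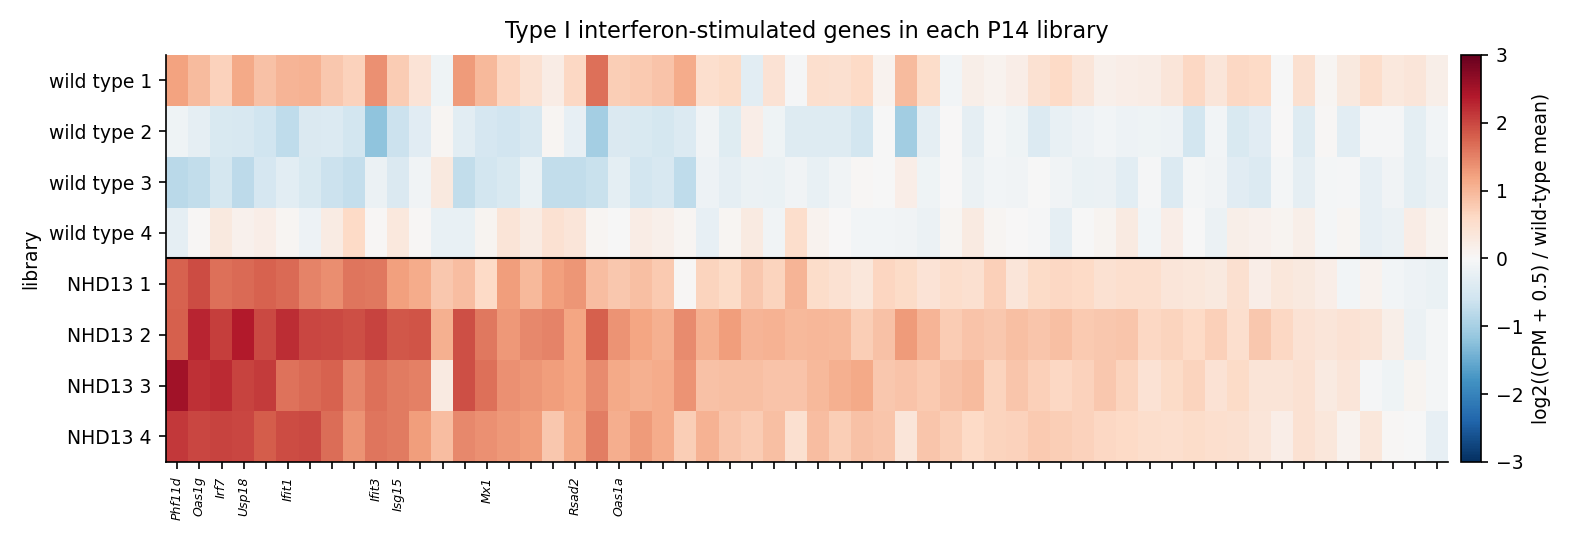
Log2 ratio of CPM + 0.5 to the wild-type mean (colour, limited to 3 in either direction) for the 58 tested type I interferon-stimulated genes (columns, sorted by fold change and labelled where the text names the gene) in each of the 8 libraries (rows). The 4 NHD13 libraries are red over most genes, and wild-type library 1 is the reddest of the wild type.

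The promoters of 3 of these genes are printed to show the element (RefSeq, GRCm38, 250 bases before the start). Isg15 (chr4:156200819-156201068, minus strand) encodes a ubiquitin-like modifier, Ifit1 (chr19:34640639-34640888, plus strand) binds viral RNA, and Rsad2 (chr12:26456453-26456702, minus strand) encodes viperin. Capitals mark the interferon-stimulated response element, searched as GAAA, then 2 bases of any kind, then GAAA, or its reverse complement. The 3 matches of Isg15 overlap.
Isg15: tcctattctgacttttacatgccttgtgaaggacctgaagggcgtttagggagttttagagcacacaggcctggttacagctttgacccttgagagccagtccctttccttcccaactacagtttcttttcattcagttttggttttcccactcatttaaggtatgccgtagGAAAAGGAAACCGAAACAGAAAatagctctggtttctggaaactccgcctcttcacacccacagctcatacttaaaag
Ifit1: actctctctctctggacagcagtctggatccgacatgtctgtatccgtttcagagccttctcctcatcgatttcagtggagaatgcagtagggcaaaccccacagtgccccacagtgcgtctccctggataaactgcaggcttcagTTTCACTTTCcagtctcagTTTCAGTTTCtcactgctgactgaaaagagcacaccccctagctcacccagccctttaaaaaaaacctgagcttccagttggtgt
Rsad2: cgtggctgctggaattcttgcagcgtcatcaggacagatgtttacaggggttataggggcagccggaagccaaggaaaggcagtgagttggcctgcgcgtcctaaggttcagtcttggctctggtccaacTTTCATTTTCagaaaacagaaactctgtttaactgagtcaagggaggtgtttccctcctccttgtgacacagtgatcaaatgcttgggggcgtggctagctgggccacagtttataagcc
Isg15 stood at 82.6, 128, 103 and 103 CPM with NHD13 and 59.3, 22.2, 25.5 and 43.2 in wild type, and Ifit1 at 133, 189.6, 126 and 158 CPM with NHD13 and 81.9, 23.8, 32.3 and 42.4 in wild type. They rose by 1.47 ± 0.34 and 1.75 ± 0.40, and Rsad2 by 1.13 ± 0.29, with no overlap in any of the 3. Searched on both strands, the element was in 2.64% of the 7925 windows of tested genes, in 6.44% of the 590 windows of genes that rose and in 2.56% of the 702 of genes that fell. Within the list it was in 12 of 31 windows (38.7%) of genes that rose and in 4 of 6 (66.7%) of those not called.

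Interferon ligands were not detectable at this depth: Ifna2, Ifna4 and Ifng had 0 counts, which allows up to 3 over a group, and Ifnb1 had 1 count, in the wild type. Of 26 tested genes of ligands, receptors and sensors 2 rose and 6 fell (30.8% called, beside 15.9% of all tested genes). Ifngr2, a chain of the interferon gamma receptor, stood at 24.9, 31.2, 25.7 and 26.98 CPM with NHD13 and 55.1, 55.9, 57.6 and 52.6 in wild type and fell by 1.02 ± 0.13. Ifnar1 was not called (-0.21 ± 0.09), and Ifnar2 fell by 0.37 ± 0.09. Samhd1, which depletes nucleotides, rose by 0.58 ± 0.09. Aim2, a DNA sensor, rose by 0.35 ± 0.12 and missed the threshold without NHD13 library 2, 3 or 4 or wild-type library 2 or 4 (adjusted p = 0.0508 to 0.136 in edgeR).

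Genes of MHC class I presentation that changed rose, and those of class II fell. Of 23 class I genes 10 rose and none fell (median 0.27). B2m, the class I light chain, stood at 5985, 4635, 4771 and 5379.8 CPM with NHD13 and 4143, 3158, 2814 and 3776 in wild type and rose by 0.58 ± 0.10. The nonclassical genes H2-Q6 and H2-Q7 rose by 3.62 ± 0.46 and 3.23 ± 0.49. H2-Q7 stood at 79.7, 43.5, 87.4 and 45.5 CPM with NHD13 and 8.61, 6.49, 4.35 and 8.02 in wild type, so all 4 NHD13 libraries were above the wild type. These 2 are near-identical, so reads may be shared between them. Nlrc5, the activator of class I genes, rose by 1.06 ± 0.21. Of 11 tested class II genes 4 fell and none rose, among them H2-DMb2, which helps to load peptides (0.96 ± 0.20 lower), and 2 fell without NHD13 library 2. Of 14 tested GTPases linked to interferon gamma 7 rose and 1 fell. Gm4951 rose by 1.88 ± 0.41 (adjusted p = 0.0702 in edgeR with the 8 libraries alone), Irgm1 by 0.86 ± 0.15 and Iigp1 by 1.37 ± 0.38, while Gbp2, Gbp3, Gbp4 and Gbp9 were not called. Gbp8, the member that fell (0.94 ± 0.26 lower), missed the threshold without NHD13 library 1 or wild-type library 4 (adjusted p = 0.0622 to 0.0867 in edgeR). Iigp1 missed it without NHD13 library 2 or wild-type library 2 or 3 (adjusted p = 0.0524 to 0.0554 in edgeR).

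Of 41 tested cell cycle genes 1 rose and 4 fell, with a median of 0.00, and 12.2% were called beside 15.9% of all genes. Without wild-type library 1, 2 rose and 6 fell. Ccnb1, the mitotic cyclin, rose by 0.32 ± 0.09. The falls were the D cyclins Ccnd2 and Ccnd3 (0.32 ± 0.09 and 0.53 ± 0.12 lower) and the cell cycle inhibitors Cdkn1a and Cdkn2c. Ccnd2 missed the threshold without NHD13 library 4 or wild-type library 2, 3 or 4 (adjusted p = 0.0576 to 0.0982 in edgeR). Cdkn1a (p21) stood at 3.45, 2.09, 2.77 and 2.86 CPM with NHD13 and 8.36, 11.5, 7.71 and 10.6 in wild type and fell by 1.77 ± 0.21, with no overlap. Mki67, Top2a, Pcna and the 6 Mcm genes were not called, but without wild-type library 1, the lowest of its group at 135 CPM, Mki67 fell by 0.42 (adjusted p = 0.00261 in edgeR). Other p53 targets went both ways: Pmaip1 (NOXA) and Fas rose by 2.45 ± 0.38 and 3.12 ± 0.59, while Phlda3 and Sesn2 fell by 1.21 ± 0.22 and 0.73 ± 0.19. The fall of Sesn2 was not called without wild-type library 3 (adjusted p = 0.0826 in edgeR). Bcl2, the survival factor, fell by 0.47 ± 0.14 and missed the threshold without NHD13 library 3 or 4 or wild-type library 4 (adjusted p = 0.0583 to 0.161 in edgeR).

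Among 24 MYC and ribosome biogenesis genes 5 rose and none fell (20.8% called, beside 15.9% of all tested genes). The rises were all under 0.40 log2 units (median 0.16). Without wild-type library 3, or without wild-type library 4, and with a term for sex, 1 passed. It was 2 without NHD13 library 1 or 2 and 3 without NHD13 library 4, so this count depends on single libraries. Immediate early genes, which rise when cells are handled, were called in 14.3%, beside 15.9% over all genes: of 21 tested Nr4a2 rose (1.16 ± 0.32), Ier3 and Gadd45b fell and Fos, Jun and Egr1 were not called. Gadd45b was not called without wild-type library 4 (adjusted p = 0.0708 in edgeR). Among other factors linked to leukemia, Trib2, a pseudokinase that degrades CEBPA, stood at 44.1, 38.4, 36.9 and 42.97 CPM with NHD13 and 2.77, 8.74, 5.64 and 6.28 in wild type and rose by 2.79 ± 0.37. Myb rose by 0.41 ± 0.13 and missed the threshold without NHD13 library 1 or 4 or wild-type library 1, 2 or 3 (adjusted p = 0.0525 to 0.12 in edgeR). Runx2 fell by 0.76 ± 0.10, and Cd96, a surface marker of leukemia stem cells, by 1.04 ± 0.13.

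The same fusion was also measured on a second background, Flt3-ITD, in 8 libraries that share none with the comparison above. Flt3-ITD with NHD13 against Flt3-ITD alone at P14 gave 914 higher (6.35%) and 1034 lower genes (7.18%), which is 13.5% of 14394. Of the 1025 genes that rose with NHD13 alone, 585 also rose there, which is 57.1% of the first list and 64.0% of the second. Of the 1260 that fell, 694 also fell (55.1% and 67.1%). The sign was the same in 962 of the rises and 1190 of the falls, and 2 and 4 genes passed in the opposite direction. The median change of these genes was smaller with Flt3-ITD, 0.66 against 0.89 for the rises and -0.54 against -0.82 for the falls. These genes were picked by their change without Flt3-ITD, and that choice alone can make the change there look larger. In the test of the difference itself 77 genes passed (0.535% of 14394), 37 with a higher (0.257%) and 40 with a lower (0.278%) NHD13 effect in the presence of Flt3-ITD. The count was 103 without wild-type library 1, and it was 40 to 50 without 1 of 6 others: NHD13 library 4, wild-type library 3, or library 3 or 4 of either Flt3-ITD group.

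No Hox gene and no interferon-stimulated gene of the lists passed the interaction test in edgeR, which does not show that their changes were equal; the noncoding Hoxb5os passed with 2.41 ± 0.57. Hoxc5 rose by 11.02 ± 0.47 with Flt3-ITD, Hoxa9 by 1.29 ± 0.11 and Pbx3 by 5.43 ± 0.21. Among the interferon-stimulated genes 48 rose there, with a median of 1.05.

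In the megakaryocyte list 20 genes rose with Flt3-ITD (median 0.96), and in the mast cell list 8 (median 1.08). Timp3 averaged 10.8 CPM (SD 3.498, n = 4) in Flt3-ITD and 10.6 (SD 3.46, n = 4) in Flt3-ITD with NHD13, and the difference between the NHD13 effects was -4.15 ± 0.54 (adjusted p = 0.000514, edgeR interaction test). Cpa3 averaged 14.4 CPM (SD 2.82, n = 4) in Flt3-ITD and 31.8 (SD 19.7, n = 4) in Flt3-ITD with NHD13, a difference of -3.35 ± 0.52 (adjusted p = 0.00342 in edgeR). Sparc, a matrix protein of platelets, was not called in NHD13 alone (0.83 ± 0.47) and fell with Flt3-ITD (-2.22 ± 0.48), a difference of -3.05 ± 0.67.

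Prg2 showed the largest difference of the opposite sign among genes of a mean log2 CPM of 2 or more. It averaged 10.1 CPM (SD 18.1, n = 4) in Flt3-ITD and 39.9 (SD 34.6, n = 4) in Flt3-ITD with NHD13, against 300.1 CPM ± 250 (SD, n = 4) in the wild type and 2.96 CPM ± 0.894 (SD, n = 4) in NHD13 alone, and the interaction was 8.68 ± 1.74 (adjusted p = 0.0293 in edgeR). Of the 10 tested eosinophil genes 4 passed the interaction test. Ccr9 averaged 13.2 CPM (SD 3.61, n = 4) in Flt3-ITD and 7.96 (SD 1.21, n = 4) in Flt3-ITD with NHD13, an interaction of 3.11 ± 0.47. Gria2, a glutamate receptor subunit, averaged 2.25 CPM (SD 0.657, n = 4) in Flt3-ITD and 27.7 (SD 9.06, n = 4) in Flt3-ITD with NHD13, an interaction of 2.71 ± 0.42. Without Flt3-ITD it rose by 0.93 ± 0.29, with overlapping groups, and missed the threshold without NHD13 library 2 or wild-type library 2 or 4 (adjusted p = 0.0796 to 0.207 in edgeR). For Prg2 and Ccr9 the level in Flt3-ITD alone was already below the wild type.

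**Figure D5:**
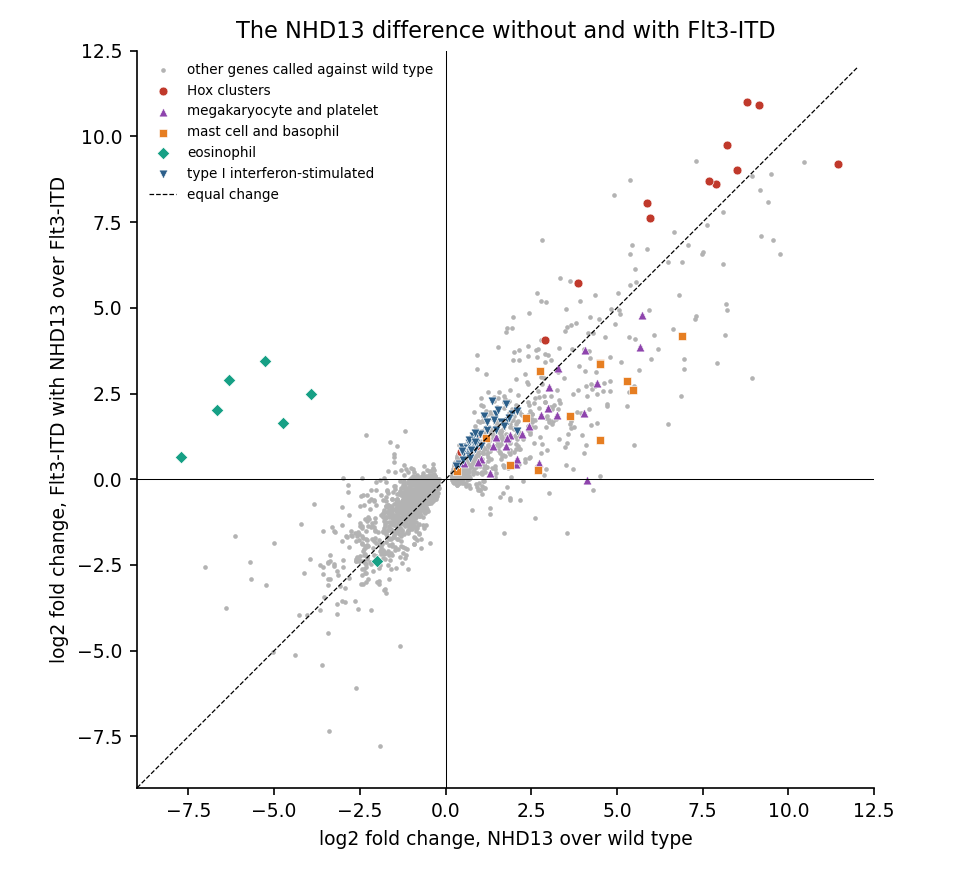
Log2 fold change of Flt3-ITD with NHD13 over Flt3-ITD (vertical axis) against that of NHD13 over wild type (horizontal axis) for the 2285 genes called in the latter, coloured by gene list, with a dashed line where both are equal. Most points lie in the lower left and upper right quadrants, Hox genes lie near or above the line, several megakaryocyte and mast cell genes below it, and 6 of the 7 eosinophil genes lie on the opposite side of 0.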

How the data were processed

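RNA was counted per gene in 24 P14 libraries (6 groups of 4, 13.7 to 27.3 M counts each), of which the 4 NHD13 and 4 wild-type libraries are compared here. The P14 table was deposited by the authors as raw read counts for 41388 Ensembl gene IDs, of which 40254 matched a symbol in GENCODE M21, whose GRCm38 coordinates are printed. The submitters' processing notes name STAR 3.0.4, Subread and featureCounts 1.4.5. The build, annotation and strand setting of the counting are not given in the sources used here. The table of libraries from birth was not used. Groups were taken from the sample titles.

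CPM scales counts to the library's TMM-adjusted total, and RPKM also divides by the exon length in GENCODE M21. edgeR 4.0.16 (R 4.3.3) was fitted to all 24 libraries, with the groups as terms, after its filter on low counts left 14394 genes; robust quasi-likelihood tests compared NHD13 with wild type, Flt3-ITD with NHD13 with Flt3-ITD, and the difference between both, with Benjamini-Hochberg adjustment over all tested genes at 0.05. The fit was tested on simulated counts. Fold changes against groups at 0 use a floor of 3 counts over the group, and intervals at 95% are exact and cover counting error only, since reads are not independent molecules. The alternatives were relative log expression size factors, DESeq2 1.42.0, no filter, a replicate block, a sex term, the 8 libraries alone and each library left out.

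No 2 libraries of a group were duplicates: the lowest chi-square per degree of freedom over 12 pairs was 11.4.

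The members and gene lists were chosen with earlier results of these data known. Genes were named by rule: the Hox genes, Nup98, Flt3 and Runx1, the 10 largest changes of each sign without overlap at a mean log2 CPM of 2 or more, the 5 lowest p-values of each sign, the 4 largest called changes of each sign per list, members described as not called, and the 3 largest interactions of each sign. Igf2bp2, Igf2bp3, Itga2b, Gp5, Gata1, Klf1, Ear2, Prtn3, Cish, Pim1, Pim2, Ephb1, Robo1, Selplg, Oas1a, Isg15, Ifit1, Rsad2, Ifnar2 and B2m fall outside it and were chosen after their values were seen. A few list members are not reported here by name, though counts over lists include them.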

Additional observations from a re-analysis of the deposited data

Results flagged for a closer look

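In 27 of 516 gene and group combinations 1 of the 4 libraries stood far from the other 3; chance gives about 1 in 20 groups. Wild-type library 1 was the highest of its group in Hba-a1 (4.68 CPM), Hba-a2 (2.72 CPM), Hbb-bs (15.7 CPM), Alas2 (3.22 CPM), Dpp4 (95.3 CPM) and Cxcr4 (64.9 CPM), and the lowest in Mki67 (135 CPM). Wild-type library 2 was the highest in Trac, at 0.205 CPM. Wild-type library 3 was the highest in the eosinophil genes Epx (174 CPM), Prg2 (674 CPM) and Ear1 (5.9001 CPM) and in Mecom (76.1 CPM). Wild-type library 4 was the highest in Hoxa6 (1.26 CPM), Ring1 (4.32 CPM), Gfi1 (11.6 CPM), Gbp8 (4.81 CPM) and Gbp9 (7.46 CPM), and the lowest in Hemgn (56.6 CPM) and Aim2 (16.9 CPM).

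NHD13 library 1 was the highest of its group in Runx1 (58.5 CPM), Prg2 (4.29 CPM) and Emp1 (5.48 CPM), and the lowest in Flt3 (863 CPM). NHD13 library 2 was the highest in Fcgr3 (10.6 CPM), Spry4 (12.99 CPM) and Ifit3 (23.2 CPM), and library 3 in Esam (6.68 CPM). For Fcgr3, Spry4, Ring1, Gbp8, Aim2, Hemgn, Mki67 and Ifit3 the call between genotypes also changed with single libraries.

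For 18 named genes the NHD13 effect differed between the backgrounds with and without Flt3-ITD in edgeR's interaction test at an adjusted p under 0.05. The effect was higher with Flt3-ITD by 9.23 log2 units in Ear1, 8.70 in Ear6, 8.68 in Prg2 and 6.401 in Ear2, all eosinophil genes and, for the Ear genes, close copies that may share reads. The fitted Ear1 difference rests on 2 counts in the NHD13 libraries and depends on the prior count. It was higher by 3.11 in Ccr9, 2.71 in Gria2, 2.41 in Hoxb5os, 1.76 in Trib3, 1.17 in Tgfbi, 1.09 in Ifitm1, 0.90 in Kcnk5 and 0.83 in Emcn. The difference was -4.15 in Timp3, -3.35 in Cpa3, -3.05 in Sparc, -1.48 in Mfsd2b, -1.39 in Bcl2 and -1.28 in Tie1, where the NHD13 effect was lower with Flt3-ITD.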

How the results depend on the processing

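The 2285 genes called between NHD13 and wild type became 2307 with relative log expression size factors, 2476 with DESeq2, 2055 with no filter, 1916 with a sex term and 1896 with the 8 libraries alone, and 1858 to 2660 with 1 library left out; 44.3 to 48.0% of calls were rises. The count of 77 genes in the interaction test was 159 with DESeq2 and 47 with a sex term, and ran from 40 (without wild-type library 3) to 103 (without wild-type library 1); the cause was not tested. In a fit with a replicate block the counts were 2273, 1920 with Flt3-ITD and 65 for the interaction. The labels do not say that a number pairs libraries, and deviations of same-numbered NHD13 and wild-type libraries correlated at -0.055, 0.054, 0.064 and -0.117, so they were not treated as paired.

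No named gene reversed under these alternatives. Of 183 named genes called, 161 stayed called whichever library of the 8 was left out, and 22 missed the threshold without at least 1 (adjusted p = 0.0508 to 0.359 in edgeR). Besides those given with their results these were Tie1 and Eng, both without wild-type library 3 and Tie1 also without 3 others. None of the 183 missed it with relative log expression or DESeq2, 4 did with no filter (Lcn2, Prss57, Aim2 and Gria2), 1 with the replicate block (Lcn2), 8 with the sex term (among them Grb10, Fcgr3 and Bcl2), and 11 with the 8 libraries alone (Eng, Ring1, Hemgn, Lcn2, Prss57, Aim2, Gm4951, Iigp1, Gbp8, Gadd45b and Gria2). Some genes not called above passed under an alternative. Hoxa5 and Ifit3 rose with DESeq2, and both and Mx1 rose without wild-type library 1. With the 8 libraries alone Mx1, Vcam1 and Egr1 rose and Procr fell. Pbx2 rose without wild-type library 4, Tgif1 fell without wild-type library 2, and Sparc rose without NHD13 library 2. Cdh5, Hoxb4, Gp9, Nfe2 and Mki67 are given with their results. Depth limits the Hox count, since 21 of 39 genes had too few counts to test.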
